A study of Caenorhabditis elegans with 9 samples.

Results

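The genes described here are 35 synaptic and neurotransmitter genes of Caenorhabditis elegans, chosen by symbol from a list of 36 and found among the 20389 genes of the deposited table. RNA was sequenced from whole larvae of the L2 stage in 3 genotypes, with 3 libraries of each and 9 in all. The wild type was strain N2. The mutant was homozygous for hsf-1(ok600), an allele of the gene for the heat shock transcription factor, and was picked as GFP-negative offspring of strain OG576, in which the hT2 balancer carries GFP. Mothers of the mutant larvae thus had 1 balanced copy. The transgenic line, AM1061, combined hsf-1(ok600) with rmSi1[hsf-1::gfp], so it carried the same allele as the mutant, and the promoter of its transgene was not in the labels. Each experiment pooled 500 larvae from several collections, aged 30 h after an egg lay of 2 h, grown at 20 °C without any heat shock in the labels.

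Neurons pass signals on by releasing transmitter from small clear synaptic vesicles and neuropeptides from dense core vesicles. Vesicles are carried along the axon by a kinesin, docked and primed at the active zone, fused by SNARE proteins when calcium enters, and taken back by endocytosis. Peptide precursors are cut and trimmed inside the dense core vesicle before release. Some of the genes below, among them unc-49, unc-9, ric-3 and unc-43, are also used in muscle.

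Levels are in FPKM, fragments per kilobase of transcript and per 1e6 mapped fragments. The tables hold a single value for each genotype, combined from its libraries before deposit, so no library can be shown by itself, no SD can be given and the depth is unknown. Below, 3 values after a gene are always in the order wild type, mutant, transgenic line, and brackets hold the deposited lower and upper bounds, whose level of confidence is not stated. A gene is said to have risen or fallen where the deposited q, the p-value adjusted over all genes, was at most 0.05. The targeted gene hsf-1 was at 25.3 (7.62 to 43.1), 21.4 (6.52 to 36.4) and 69.3 (29.4 to 109) FPKM, highest in the transgenic line. For the mutant against wild type the authors' deposited table gave hsf-1 q = 0.749. Which stretch of the gene ok600 removes was not in the labels, so its level does not check the genotype. None of 9 neuron markers was at 0 in any genotype.

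The last of the 36 symbols, unc-17, the vesicular acetylcholine transporter, had no row of its own. Its neighbour cha-1, choline acetyltransferase, had a row under the name ZC416.8, and both genes lie in the same stretch in the RefSeq gene table, so reads of unc-17 may be part of the cha-1 value.

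In wild type the levels of the 35 genes ran from 0.456 FPKM (eat-4) to 421 FPKM (unc-43), with a median of 30.1. The 9 genes at or above 100 FPKM were unc-43, sbt-1, snb-1, egl-3, ric-4, rab-3, egl-21, unc-11 and unc-64, which serve release or signalling in many kinds of neuron. A further 8 lay under 10 FPKM: eat-4, tph-1, unc-47, glr-1, cat-1, tdc-1, aex-3 and unc-31. The deposited bounds were narrower for abundant genes. Their median half-width in wild type was 53.3% of the value at 100 FPKM or more and 114.7% under 10. In whole larvae, fewer cells of a type and less RNA per cell cannot be told apart.

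**Figure D1:**
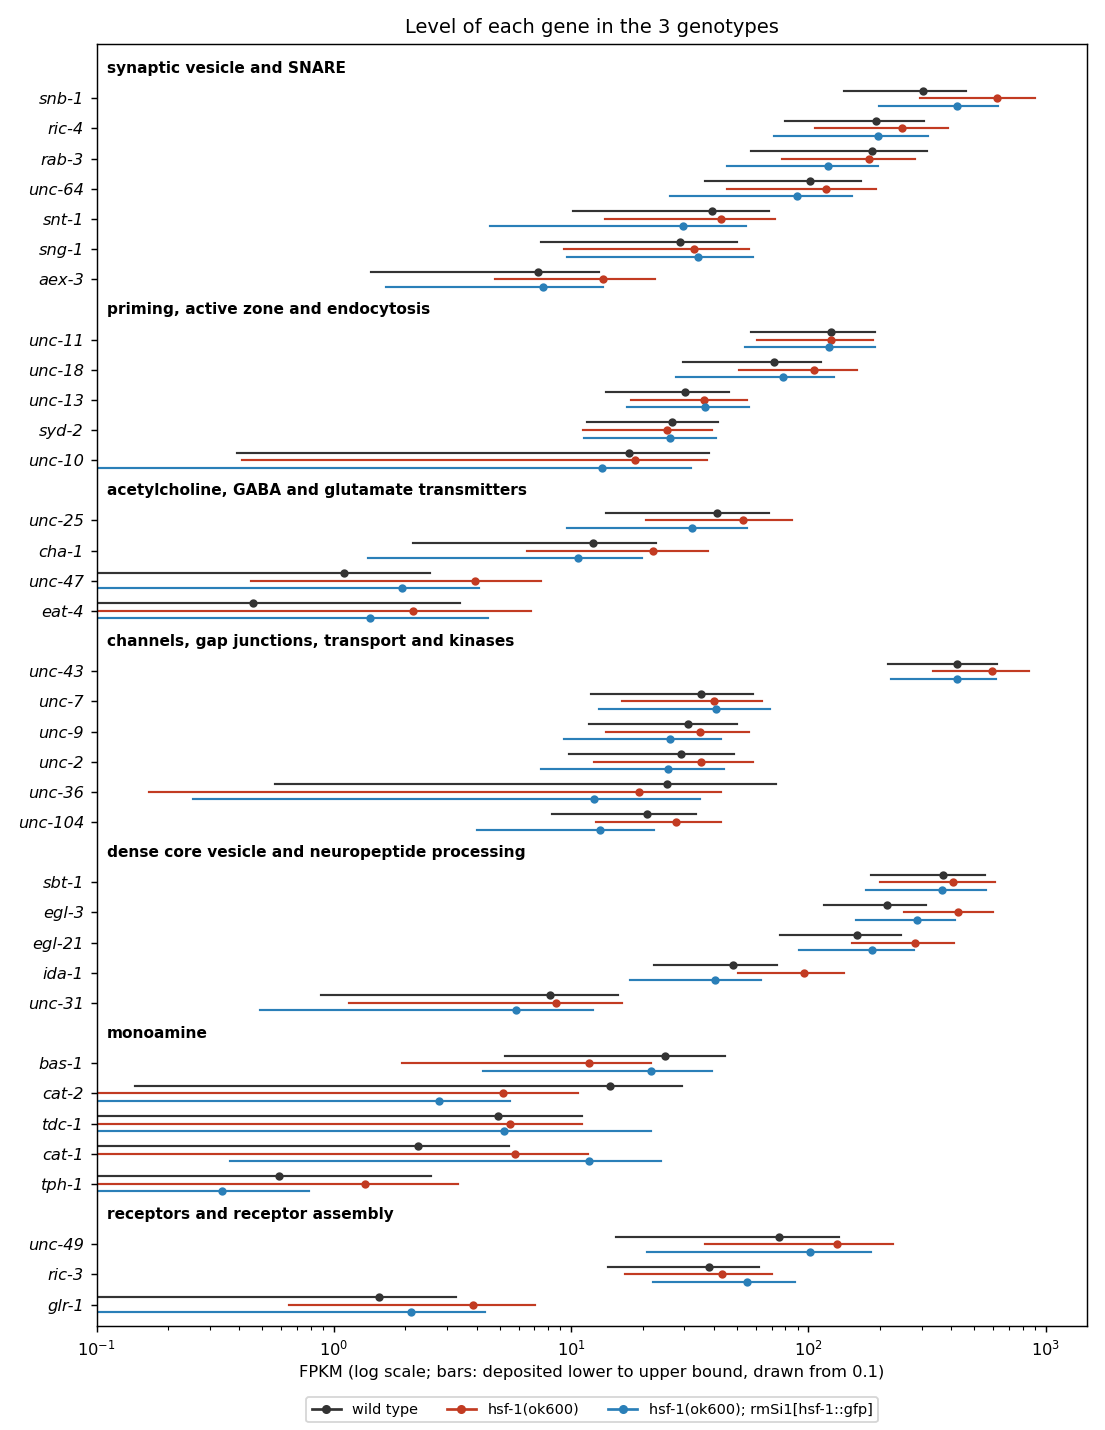
FPKM of each of the 35 genes (log axis) in the 3 genotypes, grouped by role. Points are the deposited values and bars run from the deposited lower to the upper bound; in every gene the bars of the genotypes overlap.

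In the mutant, 4 of the 35 genes rose and 0 fell by the authors' deposited q. These were the synaptobrevin gene snb-1 and the dense core vesicle genes egl-3, egl-21 and ida-1, each between 1.75-fold and 2.06-fold wild type. They make up 11.4% of the members, where 2.93% of all 12615 genes tested rose and 2.90% fell. Members were chosen with earlier results of these data known. Shares set beside those of all genes, here and below, are therefore descriptions and not tests. The other 31 did not pass, and most of them had a higher value in the mutant. For eat-4, unc-47, cat-1, glr-1 and tph-1, all under 10 FPKM in wild type, the fold was larger than for the 4 that rose.

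snb-1 (T10H9.4, build ce10, chrV:6655533-6656484) encodes synaptobrevin, the SNARE protein of the vesicle membrane. It was at 303 (141 to 464), 624 (296 to 897) and 421 (198 to 628) FPKM. The mutant was the highest genotype and wild type the lowest, with overlapping bounds in each pair. It rose 2.06-fold, a difference of 1.04 on the log2(FPKM + 1) scale, and the authors' deposited table gave q = 0.00249. The p behind it, 5e-05, is the smallest in the authors' deposited table, where 253 of the tested genes share it.

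The SNARE partners of synaptobrevin on the plasma membrane did not pass. The syntaxin gene unc-64 was at 102 (36.7 to 167), 118.8 (45.5 to 192) and 89.4 (26.0 to 153) FPKM and ric-4, the other plasma membrane SNARE gene, at 193 (79.9 to 306), 248 (107 to 389) and 196 (71.8 to 320.0). For these the authors' deposited table gave q = 0.762 and q = 0.480. Both had their highest value in the mutant, with wide overlap between genotypes.

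None of the other vesicle genes passed. snt-1, the calcium sensor synaptotagmin, was at 39.0, 42.96 and 29.6 FPKM and sng-1, a synaptogyrin of the vesicle membrane, at 28.8, 32.8 and 34.1, with q = 0.868 and q = 0.849 in the authors' deposited table. The vesicle GTPase gene rab-3 was at 186 (57.4 to 316), 179.8 (77.6 to 282) and 121 (45.5 to 197) FPKM, with q = 0.951 in the authors' deposited table, and was lowest in the transgenic line. aex-3, an exchange factor that activates RAB-3, was at 7.27 (1.44 to 13.1), 13.7 (4.77 to 22.5) and 7.61 (1.66 to 13.6) FPKM. Its mutant value was 1.88-fold wild type but did not pass, with p = 0.0173 and q = 0.143 in the authors' deposited table. Of the 7 vesicle and SNARE genes 6 had the higher value in the mutant, and the median log2 difference was 0.22, beside 0.13 over all genes tested.

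Among the 5 genes for priming, the active zone and endocytosis, 3 had the higher value in the mutant and none passed. unc-18, whose product binds syntaxin, was at 71.4 (29.6 to 113), 106 (51.0 to 160.3) and 78.1 (27.7 to 129) FPKM, with p = 0.0311 and q = 0.197 in the authors' deposited table. The priming factor gene unc-13 was at 30.1, 36.4 and 36.8 FPKM, and its q in the authors' deposited table was 0.561. The remaining genes were close in wild type and mutant: unc-10 (the scaffold RIM) was at 17.5, 18.5 and 13.5 FPKM, syd-2 (the liprin of the active zone) at 26.6, 25.3 and 26.2 and the clathrin adaptor gene unc-11 at 124, 124 and 122. In the authors' deposited table these had q = 0.953, 0.923 and 0.998. For the group the median log2 difference came to 0.08.

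Of the 5 dense core vesicle genes, 3 rose. egl-3 (C51E3.7, chrV:10169150-10173729), the proprotein convertase that cuts neuropeptide precursors, was at 215 (116 to 314), 425 (253 to 597) and 287 (158 to 416) FPKM. egl-21 (F01D4.4, chrIV:10478421-10481824), the carboxypeptidase that trims the cut peptides, was at 161 (76.0 to 245), 281 (152 to 410.0) and 185 (91.5 to 279.6) FPKM. ida-1 (B0244.2, chrIII:5755492-5765769), a phosphatase-like protein of the dense core vesicle membrane, was at 48.1 (22.3 to 73.8), 95.9 (50.3 to 141) and 40.5 (17.7 to 63.1) FPKM. The mutant was the highest genotype for each. The transgenic line lay between the others for egl-3 and egl-21 and below wild type for ida-1, and the bounds of every pair overlapped.

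egl-3 rose 1.98-fold, egl-21 1.75-fold and ida-1 1.995-fold, or by 0.98, 0.80 and 0.98 on the log2 scale. The authors' deposited table gave q = 0.00249, 0.0148 and 0.00616 for them. sbt-1, a chaperone of the convertase, was at 370.4 (184 to 556), 405 (201 to 610.1) and 367 (175 to 558) FPKM and did not pass, with q = 0.809 in the authors' deposited table. unc-31, a factor needed for dense core vesicle release, was at 8.16 (0.881 to 15.7), 8.65 (1.16 to 16.4) and 5.83 (0.486 to 12.3) FPKM, with q = 0.936 in the authors' deposited table. All 5 genes had the higher value in the mutant, with a median log2 difference of 0.80.

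**Figure D2:**
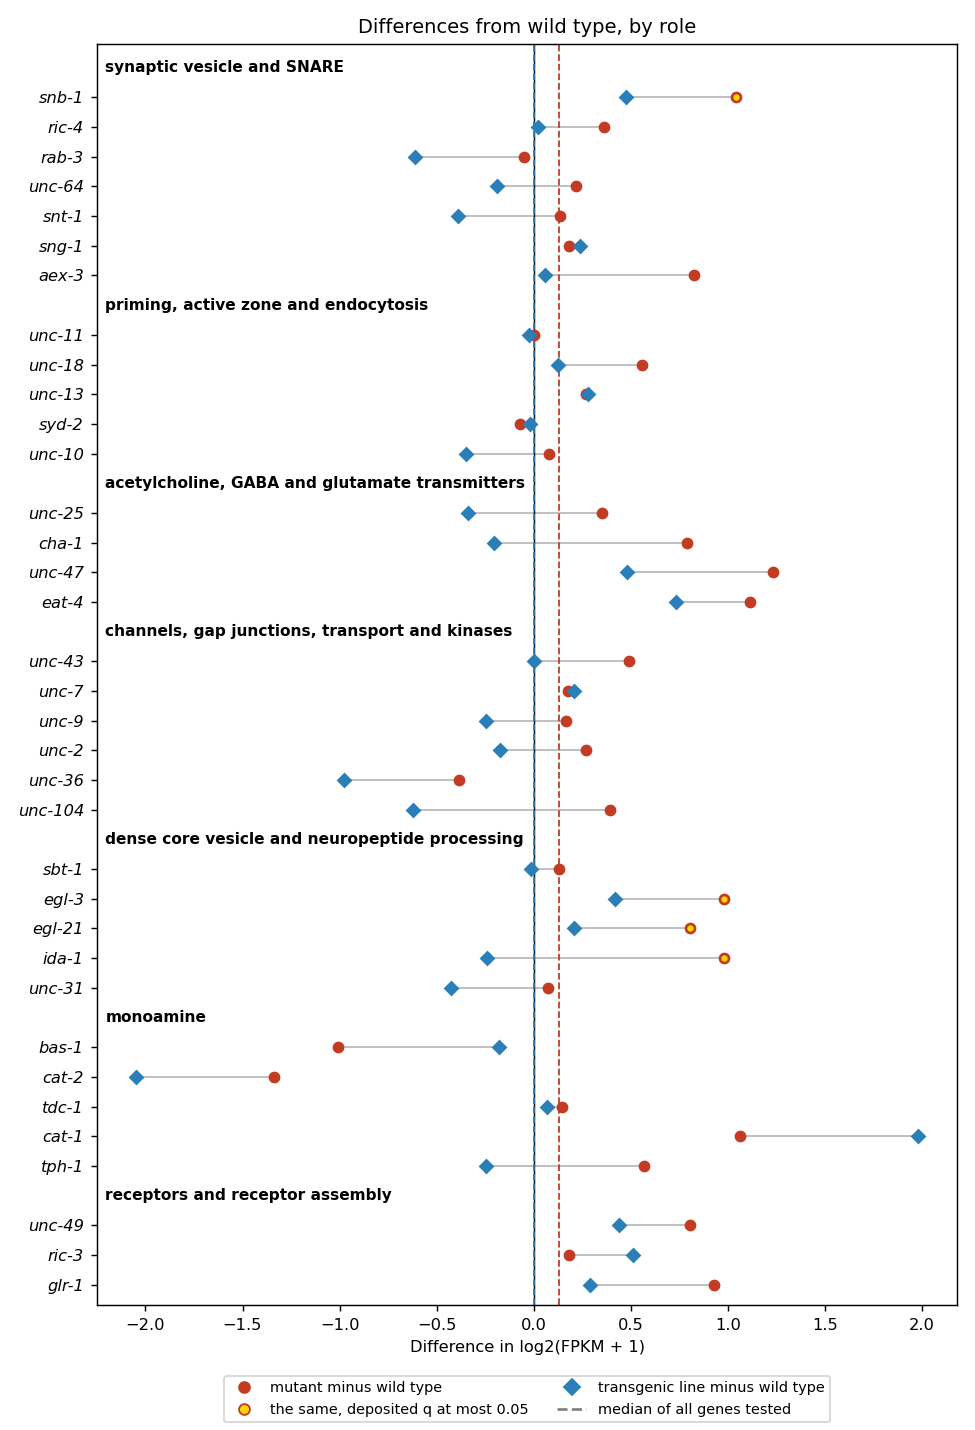
Difference from wild type in log2(FPKM + 1) for each of the 35 genes, by role, for the mutant (red circles) and the transgenic line (blue diamonds); the genes that rose by the deposited q have a gold centre, and dashed lines give the medians of all genes tested, 0.13 and 0.00. The 4 gold-centred points lie between 0.80 and 1.04.

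The 4 transmitter genes all had their highest value in the mutant, and none passed. cha-1, which makes acetylcholine, was at 12.4 (2.15 to 22.7), 22.2 (6.54 to 37.8) and 10.6 (1.39 to 19.9) FPKM, with p = 0.0493 and q = 0.254 in the authors' deposited table. For GABA, the glutamate decarboxylase gene unc-25 was at 41.2 (14.1 to 68.3), 52.9 (20.7 to 85.2) and 32.4 (9.65 to 55.2) FPKM, with q = 0.544 in the authors' deposited table. unc-47, the vesicular GABA transporter, was at 1.10 (0 to 2.55), 3.93 (0.446 to 7.46) and 1.93 (0 to 4.08) FPKM, with p = 0.0386 and q = 0.224 in the authors' deposited table. Its mutant value was the highest, and its wild-type and transgenic lower bounds were 0. eat-4, the vesicular glutamate transporter, was at 0.456 (0 to 3.41), 2.15 (0 to 6.77) and 1.42 (0 to 4.48) FPKM, with q = 0.597 in the authors' deposited table. It passed the filter of 1 FPKM only through the mutant, and its locus holds other genes. The median log2 difference was 0.95 over the 4 genes, 0.79 without the shared locus and 0.57 at a minimum of 5 FPKM, so it rests in part on the lowest genes.

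The 5 monoamine genes had values on both sides of wild type and none passed. cat-2, the tyrosine hydroxylase that starts dopamine synthesis, was at 14.6 (0.145 to 29.4), 5.17 (0.0723 to 10.7) and 2.76 (0 to 5.50) FPKM, highest in wild type and lowest in the transgenic line. Its wild-type value was 2.82-fold that of the mutant, with p = 0.00890 and q = 0.0965 in the authors' deposited table, and 5.28-fold that of AM1061, which was not tested. bas-1, the decarboxylase used for dopamine and serotonin, was at 24.8 (5.27 to 44.4), 11.8 (1.93 to 21.8) and 21.8 (4.23 to 39.4) FPKM, with p = 0.0176 and q = 0.144 in the authors' deposited table. Here the transgenic line lay near wild type, and the mutant was the lowest.

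cat-1, the vesicular monoamine transporter, had the reverse order of cat-2, at 2.26 (0 to 5.47), 5.82 (0.0718 to 11.7) and 11.9 (0.365 to 24.0) FPKM, with p = 0.0556 and q = 0.268 for the mutant in the authors' deposited table. Its value in AM1061 was 5.25-fold wild type, with overlapping bounds and no test. tdc-1, the tyrosine decarboxylase for tyramine and octopamine, was at 4.91, 5.54 and 5.205 FPKM and tph-1, the tryptophan hydroxylase for serotonin, at 0.586, 1.35 and 0.338. In the authors' deposited table these had q = 0.911 and q = 0.755.

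The 3 receptor genes had the higher value in the mutant without passing. unc-49, the GABA receptor of body muscle, was at 74.9 (15.5 to 134), 131 (36.5 to 226) and 102 (20.8 to 183) FPKM, with q = 0.299 in the authors' deposited table. glr-1, an AMPA-type glutamate receptor, was at 1.54 (0 to 3.27), 3.84 (0.647 to 7.05) and 2.11 (0 to 4.35) FPKM, with p = 0.0454 and q = 0.246 in the authors' deposited table. ric-3, which helps acetylcholine receptors to assemble, was at 38.2, 43.4 and 54.9 FPKM, highest in the transgenic line, with q = 0.804 in the authors' deposited table.

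None of the 6 channel, gap junction, transport and kinase genes passed. unc-43, the calcium/calmodulin-dependent kinase, was at 421 (216 to 626), 593 (335 to 851) and 422 (224 to 619.8) FPKM, with p = 0.0240 and q = 0.171 in the authors' deposited table. unc-104, the kinesin of synaptic vesicle precursors, was at 20.9 (8.33 to 33.4), 27.7 (12.8 to 42.6) and 13.2 (3.996 to 22.4) FPKM, with q = 0.419 in the authors' deposited table. The mutant was the highest genotype for both. unc-2, a neuronal calcium channel, was at 29.2, 35.4 and 25.7 FPKM, and unc-36, an auxiliary channel subunit with the widest bounds of its level class, at 25.5 (0.567 to 73.2), 19.3 (0.166 to 42.97) and 12.5 (0.254 to 34.9). The gap junction innexin genes unc-7 and unc-9 were at 35.4, 40.1 and 41.0 FPKM and at 31.1, 34.98 and 26.0 FPKM. In the authors' deposited table unc-2, unc-36, unc-7 and unc-9 had q = 0.679, 0.827, 0.802 and 0.816.

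Over all 35 genes, 29 (82.9%) had the higher value in the mutant, where 56.9% of all genes tested did. The median log2 difference was 0.27, beside 0.13. At a deposited p of at most 0.05, before adjustment, 10 members (28.6%) were higher and 2 (5.71%), cat-2 and bas-1, were lower in the authors' deposited table. The same held for 10.5% and 9.01% of all genes tested. By size alone the members did not stand out: 6 of 35 were at least 2-fold higher and 2 at least 2-fold lower, where 30.9% of all genes tested were past 2-fold in either direction, 2402 higher and 1499 lower. Of the 6, eat-4 and tph-1 had passed the filter only through the mutant, where they were high. At a minimum of 5 FPKM 2 members were at least 2-fold higher, and the 2-fold share of all genes was not taken there. At that minimum 25 of 31 members had the higher value in the mutant, where 54.1% of all genes did. The deposited bounds of mutant and wild type lay apart in 0 members and in 0.927% of all genes tested.

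All 35 genes reached 1 FPKM in wild type or mutant, eat-4 and tph-1 through the mutant alone. For 9 members (unc-64, unc-10, eat-4, unc-36, rab-3, sbt-1, tph-1, tdc-1 and unc-7) the locus in the files also held other genes, with 7 genes in that of unc-10, and reads of overlapping genes may be split uncertainly there. The 4 genes that rose each had a locus to themselves. Over the 26 members with such a locus, 22 had the higher value in the mutant. The share of all genes with such a locus is not given beside it. Exonic length, from 791 to 7784 bases, had a rank correlation of −0.07 with the log2 difference over the 35 members.

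**Figure D3:**
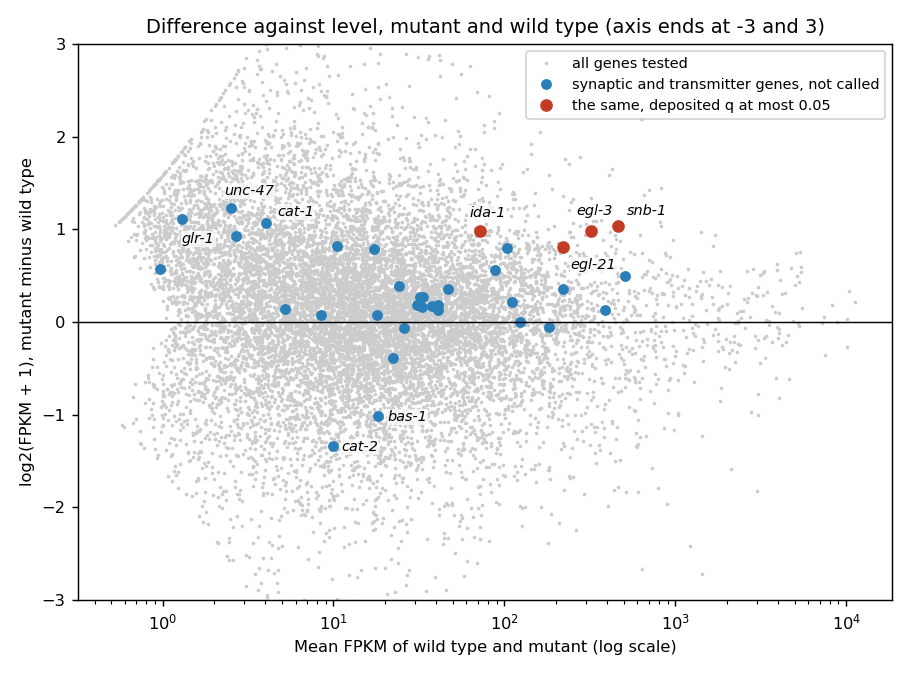
Difference in log2(FPKM + 1), mutant minus wild type, against mean FPKM (log axis) for all 12615 genes tested and the 35 members, with those that rose marked. The 4 marked genes are among the more abundant, while low genes such as unc-47, with a difference of 1.23, did not pass.

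The transgenic line has no deposited test against either genotype, and the comparisons share samples with the one above, so only values are given. Against wild type, 34 members reached 1 FPKM in either, tph-1 being the exception. Of these 17 were higher and 17 lower, where 50.0% of all genes were higher. The median log2 difference was −0.01, beside 0.00 over all genes. At least 2-fold higher were eat-4 and cat-1, where 14.9% of all genes were, and at least 2-fold lower were unc-36 and cat-2, where 15.5% were. eat-4 reached 1 FPKM here only in AM1061, where it was high. At a minimum of 5 FPKM 1 member was at least 2-fold higher, with no share of all genes taken there. Bounds lay apart in 0 members and in 0.685% of all genes.

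Against the mutant, AM1061 was higher in 7 members and lower in 28, where 40.5% of all genes were higher. With each genotype centred on genes of at least 5 FPKM, 3 members were higher. The 40.5% is uncentred and is no background for that count. The median log2 difference, uncentred, was −0.45, beside −0.19 over all genes. The genes that rose in the mutant differed by −0.57 (snb-1), −0.56 (egl-3), −0.60 (egl-21) and −1.22 (ida-1). At least 2-fold lower were 5 members, cha-1, unc-47, unc-104, ida-1 and tph-1, where 20.9% of all genes were, and at least 2-fold higher was cat-1, where 11.9% were. tph-1 reached 1 FPKM here only in the mutant, where it was high. At a minimum of 5 FPKM 3 members were at least 2-fold lower, with no share of all genes taken there. Bounds lay apart in 0 members and in 1.37% of all genes.

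The mutant was the highest of the 3 genotypes in 24 members, where it was in 42.7% of the 13380 genes that reached 1 FPKM in any genotype. Of the 24, tph-1 reached 1 FPKM in the mutant alone, where it was high, and eat-4 did not reach it in wild type. The count was not taken at a higher minimum. The mutant was the lowest in 2 members, where it was in 24.9% of those genes.

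Further genes of the same pathways were read from 9 lists, with 224 genes tested. Of these 5 (2.23%) rose and 2 (0.893%) fell by the authors' deposited q, where 2.93% and 2.90% of all genes tested did, so both shares lay below those over all genes. The higher value was in the mutant for 163 (72.8%), where it was for 56.9% of all genes tested, and the median log2 difference was 0.27. Some of the 224, among them acr-2, gab-1 and glc-3, reached 1 FPKM only through the mutant, where they were high. Others, such as inx-21 and tbh-1, did so only through wild type. This share and median were not taken at a higher minimum. In the list of the synapse and vesicle cycle 2 of 48 rose. They were snap-1, the alpha-SNAP that takes SNARE complexes apart, at 107 (40.6 to 174), 203 (94.1 to 311) and 194 (79.6 to 308) FPKM, and unc-116, a kinesin heavy chain, at 54.5 (26.6 to 82.4), 109.5 (60.1 to 159) and 71.8 (36.8 to 107) FPKM. Of 24 genes for peptide processing and dense core vesicle traffic 1 rose, cab-1, which encodes an AEX-3-binding protein, at 163 (83.4 to 243), 322 (178 to 466) and 305 (159 to 451) FPKM. In the authors' deposited table snap-1, unc-116 and cab-1 had q = 0.0409, 0.00249 and 0.00249.

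Of 34 genes for acetylcholine receptors and turnover, 0 rose and 1 fell, nra-2, a nicalin that acts on receptor make-up, at 235.0 (126 to 344), 128 (64.5 to 192) and 309 (175 to 442) FPKM, with q = 0.00451 in the authors' deposited table. By that q, 0 genes passed among 12 for GABA receptors and uptake and 25 for glutamate receptors and transporters. Nor did any among 28 of the monoamine list, 15 of the channel list and 20 of the innexin list. The channel list also held cmd-1 and ncs-1, which do not encode channels, and the innexin list held unc-1, which is not an innexin gene. At p of at most 0.05 before adjustment, 13.8% of the 224 genes were higher and 3.12% lower in the authors' deposited table, where 10.5% and 9.01% of all genes tested were. By list it held 8 higher and 1 lower for the vesicle cycle, 5 and 1 for peptide processing, 3 and 1 for acetylcholine, and 4 and 1 for the list of neuronal genes described next. It held 2 higher and 1 lower for GABA, 2 and 0 for glutamate, 6 and 0 for monoamines, 2 and 1 for channels, and 0 and 1 for innexins. The median log2 difference was 0.34 for the vesicle cycle, 0.39 for peptide processing, 0.45 for acetylcholine, 0.04 for GABA, 0.19 for glutamate, 0.24 for monoamines, 0.26 for channels and 0.19 for innexins. Several genes behind the acetylcholine median, such as acr-10 and acc-4, reached 1 FPKM only through the mutant, where they were high.

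The last list mixed genes of most neurons, regulators of single neuron classes such as unc-86 and mec-3, and tubulins that other tissues also use. Of its 23 genes 2 rose and 1 fell by the authors' deposited q, with a median log2 difference of 0.17. The alpha-tubulin gene tba-1, which is not specific to neurons, rose, at 476 (265 to 686), 799 (459 to 1139.7) and 734 (429.6 to 1039) FPKM, and so did tag-310, now sup-26, an RNA-binding protein, at 349 (94.7 to 600.3), 789 (245 to 1256) and 265 (69.4 to 456) FPKM. The homeobox gene zag-1 fell, at 47.6 (20.2 to 74.9), 22.98 (8.30 to 37.6) and 18.8 (5.79 to 31.8) FPKM, and the transgenic line was lower still. In the authors' deposited table tba-1, tag-310 and zag-1 had q = 0.0116, 0.0264 and 0.0378.

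Marker genes of the tissues of a whole larva were read beside these. Of 9 neuron markers, 3 of them members, 8 had the higher value in the mutant, with a median log2 difference of 0.39 and summed levels of 742, 1116 and 846 FPKM. Most of the difference in that sum was snb-1 itself, without which the sums were 439, 492 and 425 FPKM. The 6 markers that are not members were all higher in the mutant, with a median of 0.34 and sums of 232, 284 and 290.4 FPKM. The largest part of these sums was unc-44, at 124, 140 and 173 FPKM. In AM1061, unc-33, unc-44 and D2092.5 (maco-1) were above wild type, and rgef-1, unc-119 and ric-19 below it. Over the 9 neuron markers the median log2 difference of AM1061 from wild type was −0.24. Epidermis markers had 6 of 8 higher, a median of 0.35 and sums of 3834, 4755 and 4335 FPKM, and glia markers 4 of 4, 0.41 and 48.2, 75.1 and 55.3 FPKM. Of the glia sum, C24G7.1 (delm-2) alone was at 0.111, 19.5 and 0.255 FPKM, with q = 0.266 in the authors' deposited table. It reached 1 FPKM only through the mutant, where it was high. Without it 3 of 3 glia markers were higher, with a median of 0.30 and sums of 48.1, 55.7 and 55.0 FPKM. The other tissues had medians below 0. Body wall muscle had 4 of 10 markers higher, a median of −0.04 and sums of 11925, 12531 and 12457 FPKM, and pharynx 2 of 6, −0.20 and 593, 521 and 637 FPKM. Intestine had 3 of 8 higher, a median of −0.16 and sums of 3455, 2108 and 4024 FPKM. Most of the difference between mutant and wild type in the intestine sum was asp-1, at 2003, 852 and 2203 FPKM. The germ line had 4 of 9 higher, a median of −0.12 and sums of 92.7, 94.9 and 108 FPKM. Of all markers snb-1 and rol-6 rose and asp-1 fell by the authors' deposited q, and col-19 (epidermis) and nos-2 (germ line) were listed at 0 in wild type. The part of these tissue differences in the values of the synaptic genes was not tested.

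**Figure D4:**
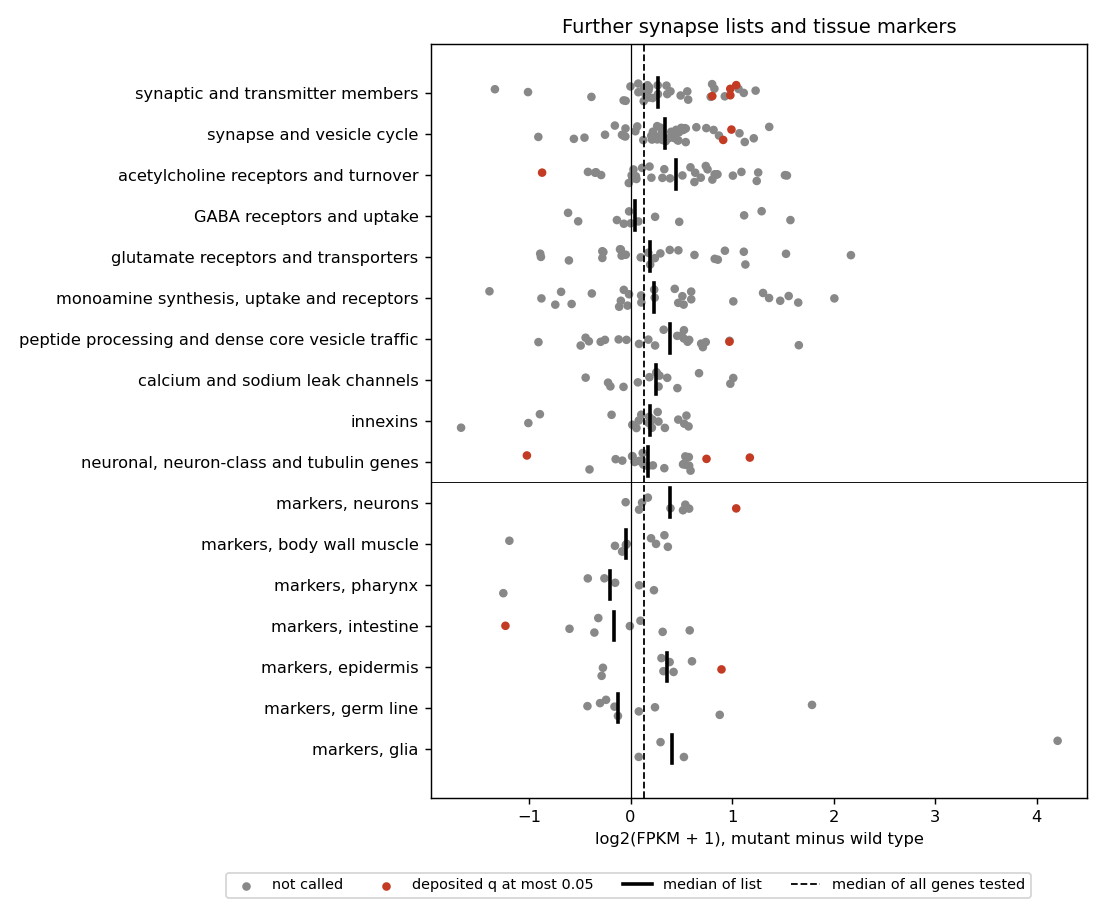
Difference in log2(FPKM + 1), mutant minus wild type, for the 35 members, the 9 further lists and the marker lists of 7 tissues. Each point is a tested gene, coloured where the deposited q is at most 0.05, bars are list medians and the dashed line is the median of all genes tested, 0.13; medians of the further lists lie between 0.04 and 0.45.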

How the data were processed

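FPKM per gene, with lower and upper bounds, come from TopHat2 and Cuffdiff runs of the authors against ce10, per the submitters' processing notes. Versions, annotation and strand setting were not in the labels. The p-values and q-values are deposited by the authors and cover the mutant against wild type. Libraries were combined before deposit, so the planned limma fit on single libraries could not be run and the deposited test was used in its place. Those p-values rest on the spread between libraries as Cuffdiff modelled it, not on a spread that can be seen here for each gene. The spread between libraries may be technical, since no label names separate cultures. Log2 differences used a pseudocount of 1, which understates changes at low levels, and folds are ratios of FPKM. Calls needed 1 FPKM in either genotype. AM1061 was described by 2-fold ratios and by bounds that lie apart. Every member is named, and up to 4 called genes of each further list, beside genes named for the filter or the make-up of a list. Members and lists were chosen with earlier results of these data known. Symbols absent from the files were matched through the RefSeq gene table of WBcel235, exonic lengths are from Ensembl, and coordinates follow the files. Alternatives covered the pseudocount, the filter, scaling, shared loci and the call rule. Python 3.11.15 and pandas 2.3.3 were used.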

Additional observations from a re-analysis of the deposited data

How the results depend on the processing

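No paired analysis was possible because the tables hold 1 value per genotype, and for the same reason no library could be left out. No direction reversed among called genes. The 4 rises rest on the deposited test: with an absolute log2 ratio of at least 1 as well, 1 remained (snb-1), by bounds that lie apart 0 did, and at q of at most 0.01 egl-21 did not pass. At q of at most 0.1, 1 member (cat-2) was called lower. Of the further lists 2 genes were called higher and 1 lower at q of at most 0.01. At 0.1, 10 were higher, and inx-20 (q = 0.0797 in the authors' deposited table) joined nra-2 and zag-1 as lower. With the log2 minimum 2 were higher and 1 lower. With a minimum of 5 FPKM, 2 members were 2-fold higher in the mutant, 1 was 2-fold higher in AM1061 than in wild type and 3 were 2-fold lower than in the mutant, and median log2 differences of the mutant were 0.57 for transmitter genes, −0.43 for monoamine genes and 0.49 for receptor genes. The transmitter median was 1.29 with a pseudocount of 0.1 and 1.33 with 0.01. After centring on genes of at least 5 FPKM, AM1061 was higher than the mutant in 3 members and 2-fold higher in 0. With shared loci left out, the median was 0.38 for all members, 0.36 for vesicle, 0.79 for transmitter, 0.33 for channel and −1.01 for monoamine genes, and 1 member each was 2-fold higher and lower in AM1061 than in wild type. The monoamine median is thus below 0 under this choice and under the higher FPKM minimum, over fewer genes. Low genes limit the comparison, since their bounds are the widest. Counts of members and further genes in this section have no share of all genes under the same setting beside them.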

Other observations

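The dopamine genes did not share an order of genotypes. The following were chosen after their values were seen, from the list of monoamine genes, and none passed by the authors' deposited q. cat-4, the GTP cyclohydrolase that makes the cofactor of the hydroxylases, was at 15.5 (0 to 37.1), 44.9 (5.12 to 84.6) and 85.0 (4.53 to 165) FPKM, highest in the transgenic line like cat-1, whereas cat-2 was lowest there. dat-1, the dopamine transporter of the cell membrane, was at 2.12 (0 to 4.36), 3.49 (0.401 to 6.57) and 2.47 (0 to 5.16) FPKM, with q = 0.584 in the authors' deposited table, where cat-4 had q = 0.380. The dopamine receptor genes did not share an order either. dop-1 was at 5.91 (0 to 14.7), 20.7 (4.30 to 37.1) and 16.8 (2.03 to 31.5) FPKM, lowest in wild type, with p = 0.00830 and q = 0.0932 in the authors' deposited table. dop-2 was at 2.48, 2.41 and 1.75 FPKM, dop-3 at 11.8 (0 to 52.3), 5.95 (0 to 21.8) and 3.77 (0 to 13.1) and dop-4 at 1.09, 1.83 and 1.14, with q = 0.984, 0.747 and 0.714 in the authors' deposited table. The loci of cat-4 and dop-3 in the files each hold 3 genes, so reads of overlapping genes may be split uncertainly there.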
